A study of Mus musculus with 177 samples.

Results

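The nuclear genes for the protein subunits of oxidative phosphorylation were followed after hypoxia and reoxygenation in 3 organs of newborn mice, the lung, the brain and the eye. Members were all probe sets with exactly 1 gene symbol that began with Ndufa, Ndufb, Ndufc, Ndufs, Ndufv, Uqcr, Cox4 to Cox8 or Atp5, or that was Sdha, Sdhb, Sdhc, Sdhd, Cyc1 or Cycs, without Cox8b and the Ndufaf assembly factors. In each tissue the probe set with the highest mean stood for its gene. This gave 83 members of 19937 genes measured: 36 of complex I, 4 of complex II, 9 of complex III, 16 of complex IV, 17 of complex V and cytochrome c. Genes were placed in complexes by symbol, so Ndufa4 is counted with complex I although its protein has been found in complex IV.

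Pups of the C57BL/6 strain at postnatal day 7 breathed a gas with an inspired oxygen fraction of 0.08 for 120 min and were then given 21, 40, 60 or 100% oxygen for 30 min (H21, H40, H60 and H100). Pups of the normoxia groups stayed in air for 120 min and then had 100% oxygen (N100) or went on in air (N21). All animals spent a further 150 min in air before the organs were taken, so every value describes RNA after recovery and none was taken at the end of hypoxia. RNA was measured on Affymetrix arrays, and values are log2 intensities, on which a difference of 1 is a doubling. The design asks whether hypoxia and the oxygen given afterwards changed RNA in each organ. RNA came from tissue and not from sorted cells, so fewer cells of a type and less RNA per cell cannot be told apart.

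The respiratory chain passes electrons from NADH (through complex I) and from succinate (through complex II) to complex III, then by cytochrome c to complex IV, which reduces oxygen. Complexes I, III and IV pump protons across the inner mitochondrial membrane, and complex V, the ATP synthase, uses the gradient to make ATP. Most subunits are encoded in the nucleus and a few in mitochondrial DNA. Complex IV has subunits with tissue-specific isoforms: Cox6a2 and Cox7a1 are the forms of heart and skeletal muscle, Cox7a1 is also abundant in brown fat, and Cox4i2 is known from lung. Cox4i2 and Ndufa4l2 are known targets of the hypoxia-inducible factors.

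The results rest on 60 lung, 58 brain and 56 eye arrays, with 9 to 12 per group and tissue. In each tissue 1 array of the H40 group had the expression profile of another of the organs and was left out. The organs carried their own markers: the mean of 8 type 2 alveolar genes was 11.23 to 11.79 on lung arrays of the hypoxia groups and 11.37 to 11.74 in normoxia, that of 8 neuronal genes a median of 10.72 and 10.74 on brain arrays, and that of 8 lens genes 12.59 to 13.40 and 12.76 to 13.35 on eye arrays. Arrays also differed by the order of their sample records: a first run sorted by tissue and group holds 38 lung, 38 brain and 37 eye arrays used here, and 22, 20 and 19 came in later records. The labels do not say what this order stands for. Of all genes, 56.5% in lung, 44.8% in brain and 38.7% in eye differed between later and first records (limma, adjusted p under 0.05). Every group has arrays in both, but unevenly. First records hold 8 of 9 N100 arrays in brain and in eye and 8 of 10 in lung, against 5 of 9 N21 arrays in each organ. Comparisons with N100 are therefore partly mixed with record order.

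No subunit gene passed the test for a change with hypoxia in any of the organs. When all hypoxia arrays were compared with all normoxia arrays, 0 of 83 members passed in lung, against 1.63% of all genes (limma, Benjamini-Hochberg adjusted p under 0.05 over all genes). Brain had 0 of 83, where the share over all genes was 0.0853%, and eye had 0 of 83, where it was 0.0903%. At an unadjusted p under 0.05, 0 members were found in lung (8.93% of all genes), 0 in brain (3.28%) and 5 in eye (5.24%). The median change over the members was -0.0036 in lung, 0.0060 in brain and -0.049 in eye, where the medians over all genes were 0.0079, -0.0028 and 0.0028. Without N21 array 7 the eye median was -0.030.

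With hypoxia and normoxia arrays pooled, the 95% interval of the change lay within a 1.25-fold difference in either direction (0.32 on the log2 scale) for 78 of 83 members in lung, 83 in brain and 76 in eye. In lung the members whose intervals reached beyond these limits were Cox7a1, Cox6a2, Sdhb, Ndufa1 and Uqcrq. In eye they were Cycs, Ndufb10, Ndufb9, Cox5a, Cox6a2, Cox7a1 and Ndufa4l2.

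**Figure D1:**
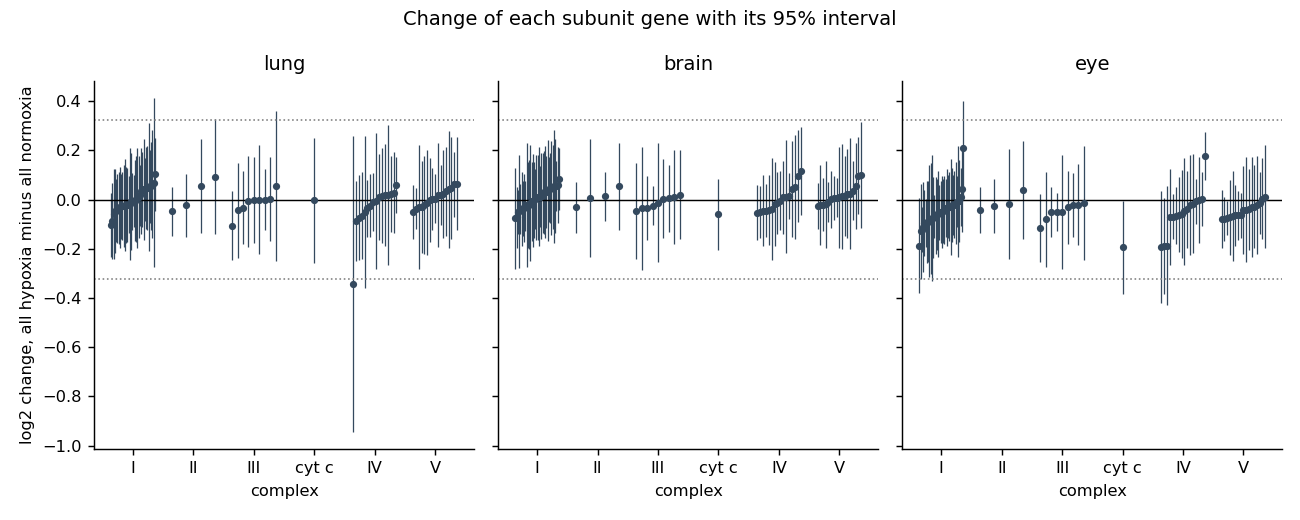
Log2 change of each of the 83 members, all hypoxia minus all normoxia arrays, by complex, in lung, brain and eye. Points are fitted changes, vertical lines their 95% intervals, and dotted lines mark a 1.25-fold difference; Cox7a1 in lung has the widest interval (-0.94 to 0.26), and in eye most points lie below 0.

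Complex I, the NADH dehydrogenase, had 36 members and a median change of -0.0067 in lung, 0.0091 in brain and -0.051 in eye. The largest differences in lung were those of Ndufb3 (0.10 ± 0.074, SE) and Ndufc1 (-0.10 ± 0.065). In brain they were Ndufv1, which carries the flavin that accepts electrons from NADH (0.084 ± 0.063), and Ndufb2 (-0.076 ± 0.10). In eye they were Ndufa4l2 (0.21 ± 0.095) and Ndufb10 (-0.19 ± 0.096). Ndufa4, the widespread paralog of Ndufa4l2, differed by 0.0091 in lung, 0.041 in brain and -0.060 in eye.

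Complex II, succinate dehydrogenase, also works in the tricarboxylic acid cycle. Sdha, its flavoprotein, differed by -0.023 ± 0.064 in lung, 0.013 ± 0.050 in brain and -0.027 ± 0.055 in eye. Sdhb, the iron-sulfur subunit, differed by 0.093 ± 0.12 in lung, 0.0064 ± 0.12 in brain and -0.017 ± 0.11 in eye. The membrane anchors lay equally close to 0: Sdhc at -0.048, -0.031 and -0.042 for lung, brain and eye, and Sdhd at 0.056, 0.054 and 0.039.

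In complex III, cytochrome c1 (Cyc1), which hands electrons to cytochrome c, differed by -0.044 ± 0.097 in lung, 0.0046 ± 0.069 in brain and -0.11 ± 0.069 in eye. All 9 complex III members had negative changes in eye, from -0.11 to -0.013, against 7 of 9 in lung and 5 of 9 in brain. Of all genes, 48.11% had negative changes in eye, 44.82% in lung and 52.05% in brain. Within groups the median correlation between pairs of members was 0.45 in eye, so such counts do not stand for separate genes. Cycs, the carrier itself, differed by -0.0036 ± 0.13 in lung, -0.060 ± 0.072 in brain and -0.19 ± 0.094 in eye (adjusted p = 0.95 in eye). It has 3 probe sets, and this is the brightest. With every probe set tested, the others gave -0.19 ± 0.11 and -0.29 ± 0.090 in eye (limma adjusted p = 0.999 and 0.39). The latter, dim with a mean of 5.63 in eye, gave 0.12 ± 0.10 in lung and -0.0048 ± 0.11 in brain. On eye arrays the brightest probe set of Cycs ran from 9.77 through a median of 10.23 to 11.56 in the 38 hypoxia arrays. In the 18 normoxia arrays it ran from 9.98 through 10.40 to 11.43. The ranges overlap almost wholly, and 32 of 38 hypoxia arrays lay below the normoxia mean.

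In complex V the changes ran from -0.051 (Atp5c1) to 0.065 (Atp5g1) in lung, from -0.026 (Atp5b) to 0.099 (Atp5mpl) in brain and from -0.078 (Atp5pb) to 0.011 (Atp5g2) in eye. Atp5b encodes the catalytic subunit and Atp5c1 the central shaft. In eye 15 of 17 members of this complex had negative changes, against 7 of 17 in lung and 5 of 17 in brain. The shares over all genes were 48.11%, 44.82% and 52.05%, and members moved together from array to array.

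Complex IV held the member nearest to the threshold. Cox4i2, the alternative form of subunit 4, was 0.18 ± 0.049 higher in hypoxia than in normoxia arrays of the eye, which did not pass (limma, p = 0.0006, adjusted p = 0.22). Its levels ran from 7.19 through a median of 7.63 to 7.78 in H21, from 7.13 through 7.61 to 8.02 in H40, from 7.36 through 7.45 to 7.65 in H60 and from 7.37 through 7.48 to 7.73 in H100 eyes. In normoxia they ran from 7.23 through 7.35 to 7.59 in N100 eyes and from 7.09 through 7.28 to 7.55 in N21 eyes. Every hypoxia group had a higher median than either normoxia group, the ranges overlapped, and 35 of 38 hypoxia arrays lay above the normoxia mean of 7.34. The difference was 0.16 within the first sample records (adjusted p = 0.53), 0.20 within the later ones (adjusted p = 1.0) and 0.18 with record order as a term (adjusted p = 0.093).

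In lung Cox4i2 differed by -0.035 ± 0.058 and in brain by -0.050 ± 0.053. The test of the difference between organs gave -0.21 ± 0.075 for lung minus eye (adjusted p = 0.35) and -0.23 ± 0.076 for brain minus eye (adjusted p = 1.0), and neither passed. Ndufa4l2 gave -0.23 ± 0.099 for lung minus eye (adjusted p = 0.70) and -0.25 ± 0.10 for brain minus eye (adjusted p = 1.0). Over all members 0 of 83 passed in these differences between organs, against 0.376% of all genes for lung minus eye, 0.015% for brain minus eye and 0.431% for lung minus brain. At an unadjusted p under 0.05 there were 2, 2 and 0 members, against 5.83%, 3.13% and 5.3% of all genes. These tests took arrays of different organs as independent, although organs shared animals.

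Ndufa4l2 on eye arrays ran from 8.01 through a median of 8.63 to 9.31 in hypoxia, against 7.77, 8.43 and 8.90 in normoxia. The groups overlapped widely, 30 of 38 hypoxia arrays lay above the normoxia mean, and the adjusted p was 0.90. Ndufc1 differed by -0.12 ± 0.046 in eye (adjusted p = 0.66), with 30 of 38 hypoxia arrays below the normoxia mean. Cox4i1, the common form of subunit 4, differed by -0.039 ± 0.079 in eye, 0.017 ± 0.10 in lung and 0.050 ± 0.11 in brain.

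**Figure D2:**
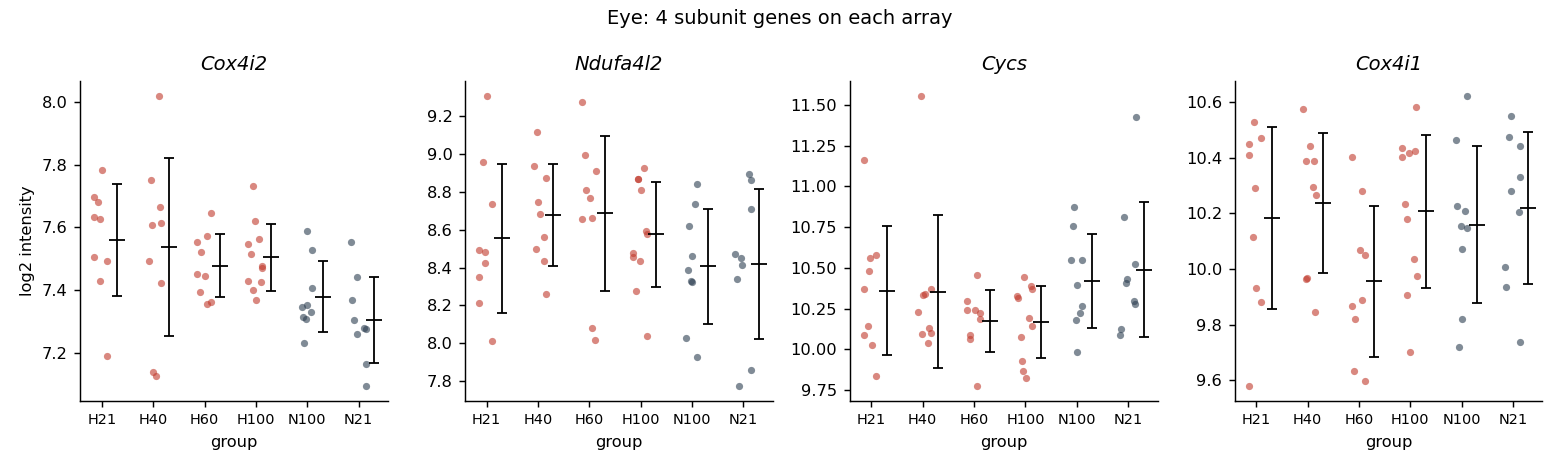
Log2 intensity of Cox4i2, Ndufa4l2, Cycs and Cox4i1 on every eye array (points), with group mean and SD beside them; red marks hypoxia and dark blue normoxia groups. Cox4i2 has group means of 7.56, 7.54, 7.48 and 7.50 in H21, H40, H60 and H100 eyes, against 7.38 in N100 and 7.31 in N21 eyes, with overlapping points.

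The remaining isoforms of complex IV gave no call. Cox6a1, Cox6b1, Cox7a2 and Cox8a, the widespread forms, differed by 0.016, -0.065, 0.012 and -0.0077 in lung, by 0.044, 0.12, 0.0085 and -0.040 in brain, and by -0.016, -0.072, -0.063 and -0.022 in eye. Cox6b2 and Cox8c, known from testis, differed by 0.023 and -0.024 in lung, -0.054 and -0.045 in brain, and -0.0074 and 0.0027 in eye. Cox7a2l, which takes part in joining complexes III and IV into supercomplexes, differed by -0.089 ± 0.081 in lung, 0.096 ± 0.093 in brain and -0.049 ± 0.11 in eye. Cox7b2 had the largest positive difference of the complex in lung (0.060 ± 0.057), and it was dim, with a mean of 3.66 in lung, 4.09 in brain and 3.56 in eye, where the medians over all probe sets were 6.25, 6.07 and 6.35.

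Muscle isoforms had the most negative differences of complex IV, Cox7a1 in lung and Cox6a2 in eye. In lung Cox7a1 was 7.60 ± 1.23 (SD, n = 41) in hypoxia and 7.95 ± 0.95 (SD, n = 19) in normoxia arrays, a difference of -0.34 ± 0.30 (SE, limma adjusted p = 0.91), while Cox6a2 differed by -0.051 ± 0.16. In eye Cox6a2 differed by -0.19 ± 0.11 and Cox7a1 by -0.19 ± 0.12 (limma, both with an adjusted p of 0.999). Of 10 skeletal muscle genes, all 10 had negative changes in eye (48.11% of all genes), with a median of -0.26, and 0 passed. Of 7 brown fat genes, 6 had negative changes in lung (44.82% of all genes). Their median was -0.42, Ucp1, the uncoupling protein of brown fat, was at -0.94, and 0 passed. The mean of the skeletal muscle genes on eye arrays ran from 9.17 to 10.85 in hypoxia, against 9.97 to 10.84 in normoxia, and the mean of the brown fat genes on lung arrays from 5.28 to 8.43, against 5.40 to 7.74. The part of these tissues in the isoform values was not tested.

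Across lung arrays Cox7a1 followed brown fat markers, and Cox6a2 followed heart muscle markers below a gap in their level. Each isoform also followed other lists. The mean of the brown fat genes fell into separate clusters, with 40 arrays from 5.28 to 6.52 and 20 arrays from 7.09 to 8.43. Cox7a1 ran from 6.03 through a median of 6.88 to 8.32 in the lower cluster and from 8.29 through 9.21 to 10.38 in the higher one. Within the lower cluster its Pearson correlation with that mean was 0.82 and its Spearman correlation 0.83 (permutation p = 1e-05 for each, the smallest that 100000 permutations can give; adjusted 3e-05 over 24 relations), and r was 0.81 without the 2 arrays farthest from the median. Within the higher cluster Pearson's r was 0.79 (permutation p = 4e-05, adjusted 9.6e-05), Spearman's rho 0.82 (p = 4e-05, adjusted 8.73e-05), and r was 0.75 without 2 arrays. Pearson's r was 0.79 and 0.81 within the first records of the lower and the higher cluster, and 0.91 and 0.74 within the later records.

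In eye no such gap was seen, and Cox6a2 followed the skeletal muscle genes, with r = 0.92 and rho = 0.82 over 56 arrays (permutation p = 1e-05 each, adjusted 3e-05) and r = 0.89 without the 2 farthest arrays. Within the first records r was 0.92 and within the later ones 0.94. Cox6a2 in eye also followed the heart muscle genes (r = 0.89, rho = 0.84). Cox7a1 in eye followed the brown fat genes (r = 0.78, rho = 0.83) and the skeletal muscle genes (r = 0.68, rho = 0.56). Each of these had a permutation p of 1e-05 (adjusted 3e-05). Weaker in eye were Cox6a2 with the brown fat genes (r = 0.38) and Cox7a1 with the heart muscle genes (r = 0.51, rho = 0.32). Cox6a2 in lung gave r = 0.70 and rho = 0.65 with the heart muscle genes over 51 arrays below a gap in their mean (permutation p = 1e-05 each, adjusted 3e-05), and r = 0.65 without 2 arrays. It was 0.70 within the first records and 0.72 within the later ones. A further 9 arrays lay above that gap, with Cox6a2 from 8.46 to 9.74. There r was 0.88 (permutation p = 0.00318, adjusted 0.00449), rho 0.65 (p = 0.0663), and r was 0.58 without 2 arrays. Below that gap Cox7a1 gave r = 0.67 and rho = 0.57 (permutation p = 1e-05 and 2e-05). Below the gaps of the other lists in lung, Cox6a2 gave r = 0.50 with brown fat genes, and Cox7a1 gave r = 0.50 with skeletal muscle genes. Cox6a2 with skeletal muscle genes gave r = 0.60 and rho = 0.64 below their gap, and r = 0.76 without 2 arrays. That r was 0.80 within the first records and 0.36 within the later ones. Not every such relation held: among lung arrays above the gap in the skeletal muscle genes (n = 17), r with that list was 0.30 for Cox6a2 (permutation p = 0.248, adjusted 0.259) and 0.26 for Cox7a1 (p = 0.314, adjusted 0.314). Above the gap in the brown fat genes (n = 20), r for Cox6a2 was 0.44 (permutation p = 0.05, adjusted 0.0572). Over the 9 arrays above the gap in the heart muscle genes, Cox7a1 gave r = 0.52 and rho = 0.15.

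**Figure D3:**
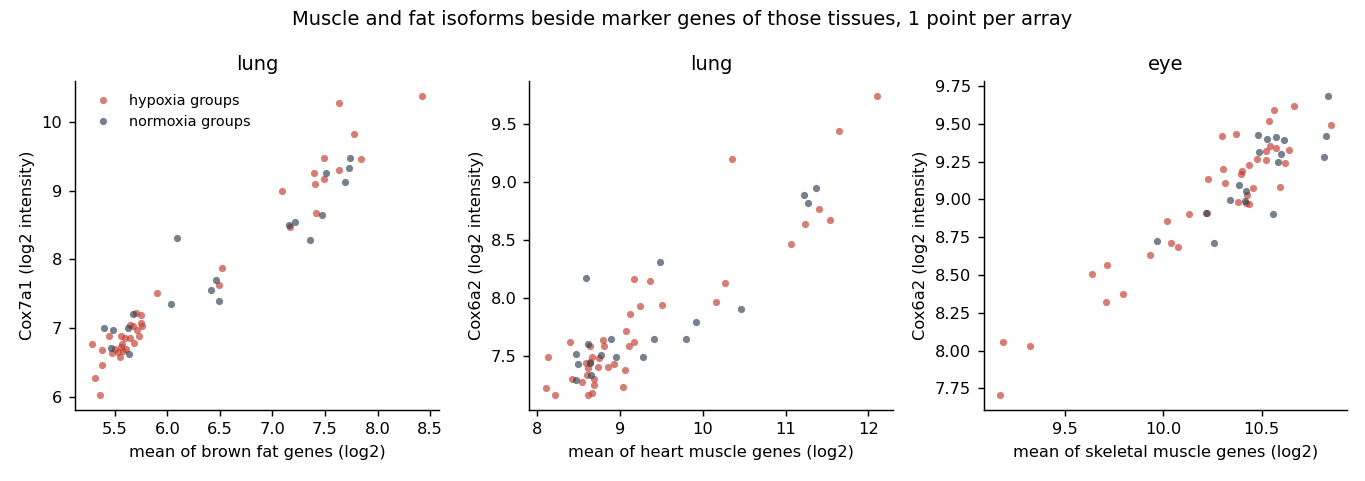
Log2 intensity of Cox7a1 or Cox6a2 (vertical) against the mean log2 intensity of brown fat, heart muscle or skeletal muscle genes (horizontal), 1 point per array, red for hypoxia and dark blue for normoxia groups. Arrays of both kinds lie along the same course, and 20 lung arrays lie above 7.09 for brown fat genes.

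The organs differed in which isoforms they showed. Organs were normalized separately, so the following levels are a description of the same probe set in each, with no test. Cox4i2 was 8.80 ± 0.20 in lung (SD, n = 60), 7.46 ± 0.18 in eye (n = 56) and 6.20 ± 0.18 in brain (n = 58). Its lowest lung value, 8.27, exceeded the highest eye value, 8.02, and its lowest eye value, 7.09, exceeded the highest brain value, 6.54. Cox4i2 was the only member of the 83 with this separation between lung and eye. The share of all genes with such a separation was not counted. Ndufa4l2 was 8.55 ± 0.35 in eye, 8.29 ± 0.20 in lung and 6.20 ± 0.17 in brain, and only lung and eye overlapped.

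The muscle forms were highest in eye: Cox6a2 was 9.05 ± 0.41 in eye, 7.80 ± 0.60 in lung and 7.02 ± 0.20 in brain, and Cox7a1 was 8.48 ± 0.43, 7.71 ± 1.15 and 6.45 ± 0.25. Eye and brain did not overlap for either gene. Among the widespread forms Cox4i1 was 9.98 ± 0.38 in lung, 10.40 ± 0.38 in brain and 10.16 ± 0.28 in eye. For Cox7a2 the means were 9.13 ± 0.32, 9.91 ± 0.27 and 9.71 ± 0.26, and for Cox6a1 9.43 ± 0.35, 10.25 ± 0.37 and 9.44 ± 0.37. Cox6b2, a form known from testis, had means of 6.81 ± 0.27, 6.32 ± 0.21 and 6.46 ± 0.16. Over the 83 members the mean was highest in brain for 60, in eye for 18 and in lung for 5 (Cox4i2, Cox6b2, Cox7a2l, Cox8c and Ndufa7). The shares over all genes were not counted, so whether this order is particular to the subunit genes cannot be told. For Uqcrb the brain value came from a different probe set than in lung and eye.

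Levels of the subunit genes went together from array to array within a group. After each group mean was subtracted, the median correlation between pairs of members was 0.62 in lung, 0.47 in brain and 0.45 in eye over 3403 pairs, as a description of arrays that share RNA quality, labelling and normalization. The median level of the 83 members on an array ran from 8.80 through 9.35 to 9.86 in H21, from 9.05 through 9.51 to 9.96 in H40, from 8.92 through 9.18 to 9.66 in H60, from 8.88 through 9.39 to 9.91 in H100, from 8.68 through 9.31 to 9.77 in N100 and from 8.98 through 9.47 to 9.65 in N21 lungs. All these ranges overlap.

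In brain the median level on an array was 9.95 ± 0.23 in H21, 9.96 ± 0.21 in H40, 9.87 ± 0.22 in H60, 9.84 ± 0.18 in H100, 9.81 ± 0.31 in N100 and 10.00 ± 0.18 in N21 arrays (SD, n = 9, 9, 11, 11, 9 and 9). In eye it was 9.68 ± 0.32, 9.73 ± 0.15, 9.58 ± 0.19, 9.72 ± 0.23, 9.64 ± 0.23 and 9.79 ± 0.17 (n = 9, 9, 9, 11, 9 and 9). No group stood clear of the others in either organ.

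**Figure D4:**
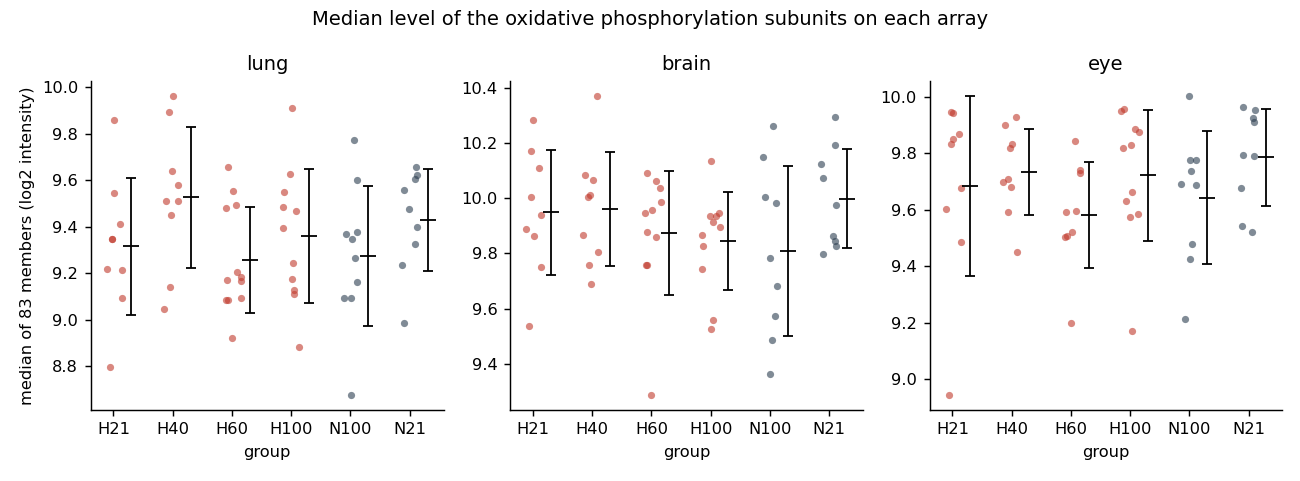
Median log2 intensity of the 83 members on each array, by group, in lung, brain and eye; points are arrays, and bars are the group mean and SD. Groups overlap in each organ, and in eye 1 H21 array lies at 8.94, below all others.

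Arrays of different organs that carry the same group and number moved together. In the first records, deviations of the member median from the group correlated with r = 0.71 and rho = 0.76 between brain and eye over 37 pairs (permutation p = 1e-05 each, adjusted 3e-05, r = 0.73 without the 2 farthest pairs). Between lung and eye r was 0.54 and rho 0.50 (37 pairs, p = 0.00053 and 0.00193, adjusted 0.000909 and 0.00309, r = 0.47 without 2), and between lung and brain r was 0.45 and rho 0.41 (38 pairs, p = 0.0039 and 0.0112, adjusted 0.0052 and 0.0158, r = 0.38 without 2). Sex read from the arrays matched in 38 of 38 lung and brain pairs, 36 of 37 lung and eye pairs and 36 of 37 brain and eye pairs of the first records. Over all records Pearson's r was 0.55 for brain and eye (55 pairs), 0.50 for lung and eye (55) and 0.33 for lung and brain (57). The design text names 62 mice, and 61 lung, 59 brain and 57 eye arrays are labelled, so animals gave more than 1 organ. The labels do not say which arrays come from 1 animal.

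Subunit genes were called between later and first sample records. Later minus first, 53 of 83 members were higher and 6 lower in lung, 19 higher and 8 lower in brain, and 31 higher and 4 lower in eye (limma, adjusted p under 0.05), where 56.5%, 44.8% and 38.7% of all genes were called. The median difference over members was 0.26 in lung, 0.014 in brain and 0.12 in eye, against 0.015, -0.046 and -0.024 over all genes. In lung Ndufa1 was 1.01, Uqcrq 0.80 and Cox8a 0.77 higher in later records, while Ndufs1, the largest subunit of complex I, was lower (-0.38).

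Promoter windows of 67 members were found in RefSeq (GRCm38.p6), as 72 windows from 250 bases before to 50 after the start. Factors known for nuclear genes of the respiratory chain are NRF1, GABPA, YY1 and ERRA, and ACGTG and GCGTG are the cores bound by the hypoxia-inducible factors. GCGCA, any base and GCGC (NRF1) in a row were found on either strand in 23.6% of member windows, against 4.60% of all 32851 windows, and CCGGAAG (GABPA) in 23.6%, against 8.86%. AAGATGGCG (YY1) was in 9.72%, against 1.40%, and TCAAGGTCA (ERRA) in 2.78%, against 0.423%. ACGTG was in 25.0%, against 19.6%, and GCGTG in 54.2%, against 32.4%. Member windows had a median GC content of 58.0%, against 52.7% over all windows, and these matches of letters are a description.

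The 250 bases before the start of the muscle and fat form Cox7a1, of its widespread partner Cox7a2 and of Cycs are shown as a pair of isoforms that differed in spread between lung arrays and as the electron carrier described in eye. They lie at chr7:30183921-30184170 on the plus strand, chr9:79759854-79760103 on the minus strand and chr6:50566570-50566819 on the minus strand of GRCm38.p6. Capitals mark ACGTG or GCGTG on either strand, and the letters searched for the other 4 factors are not in these windows.
Cox7a1: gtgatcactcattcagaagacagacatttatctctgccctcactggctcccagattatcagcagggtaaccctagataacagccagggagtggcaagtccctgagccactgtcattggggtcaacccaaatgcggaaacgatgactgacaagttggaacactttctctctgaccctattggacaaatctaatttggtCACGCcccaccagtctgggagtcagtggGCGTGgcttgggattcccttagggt
Cox7a2: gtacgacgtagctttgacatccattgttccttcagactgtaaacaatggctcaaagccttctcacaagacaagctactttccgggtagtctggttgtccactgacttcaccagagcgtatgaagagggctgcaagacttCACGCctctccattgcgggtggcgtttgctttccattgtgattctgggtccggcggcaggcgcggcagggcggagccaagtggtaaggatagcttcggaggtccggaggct
Cycs: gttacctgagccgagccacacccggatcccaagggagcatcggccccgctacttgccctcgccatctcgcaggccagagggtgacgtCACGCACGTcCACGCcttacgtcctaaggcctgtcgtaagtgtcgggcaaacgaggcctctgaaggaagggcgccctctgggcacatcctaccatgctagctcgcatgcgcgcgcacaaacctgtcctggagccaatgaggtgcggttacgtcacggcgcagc

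The oxygen given after hypoxia was examined group by group. Each hypoxia group and N100 were compared with N21, so these comparisons share their 9 N21 arrays per organ. The median change over members in H21, H40, H60, H100 and N100 was -0.082, 0.077, -0.12, -0.021 and -0.067 in lung. In brain it was -0.021, -0.020, -0.11, -0.13 and -0.17, and in eye -0.086, -0.058, -0.21, -0.055 and -0.11. Medians over all genes stayed between -0.0078 and 0.021 in these comparisons. With arrays weighted by quality the brain medians were -0.0023, 0.012, -0.054, -0.013 and -0.093. In later records alone they were 0.054, -0.077, 0.010, -0.18 and 0.010, and in first records -0.062, 0.0059, -0.21, -0.079 and -0.22, so only H100 was negative in each of these settings. H60 and N100 were negative in all but the later records, where the N100 value rests on 1 N100 array. For N100 in lung, the median was -0.0095 with record order as a term and 0.25 in later records. In eye N100 was at -0.036 with array weights, and H21 at 0.040 in later records.

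None of these comparisons called a member, and their limits were wider than those of the pooled arrays: between 18 (H60 in eye) and 49 (H21 in brain) of 83 intervals lay within a 1.25-fold difference. In lung 0 of 83 passed in each (limma), against 0.0502% of all genes in H21, 0.00502% in H40, 0 in H60, 0.0201% in H100 and 0 in N100. At an unadjusted p under 0.05 there were 0, 0, 1, 0 and 0 members, against 5.49%, 4.67%, 3.49%, 3.39% and 1.65% of all genes. The member with the smallest p was Ndufv1 in H60 lungs (-0.28 ± 0.12, adjusted p = 0.999). Atp5l, a membrane subunit of the ATP synthase, differed by -0.27 ± 0.16 in H21, -0.25 ± 0.15 in H60 and -0.25 ± 0.16 in N100 lungs. Cox6a2 was 0.50 ± 0.26 above N21 in H40 lungs (adjusted p = 1.0), where its 9 arrays ran from 7.43 through 7.86 to 9.74, against 7.29, 7.49 and 8.94 in N21. In the same lungs the mean of the heart muscle genes was 9.82 ± 1.42 in H40 and 9.19 ± 0.93 in N21, and that of the skeletal muscle genes 7.34 ± 1.30 in H40 and 6.78 ± 1.28 in N21 (SD, n = 9 each). Their part in the Cox6a2 value was not tested.

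In brain 0 of 83 passed in each comparison, and 0 of all genes in each. At an unadjusted p under 0.05 there were 0 members in H21, 0 in H40, 2 in H60, 4 in H100 and 10 in N100, against 1.33%, 1.76%, 3.22%, 3.47% and 4.04% of all genes. In N100 brains 6 of the 10 were complex V genes, among them Atp5k (-0.31 ± 0.13), Atp5mpl (-0.41 ± 0.18) and Atp5g2, which encodes the membrane ring subunit (-0.38 ± 0.17), each with an adjusted p of 0.95. In H100 brains Cox6b2 differed by -0.24 ± 0.089 and Ndufab1, the mitochondrial acyl carrier protein, by -0.25 ± 0.11 (adjusted p = 0.997 each). In H60 brains the dim Cox7b2 (-0.22 ± 0.095) and Atp5pb (-0.19 ± 0.093) had the smallest p, with an adjusted p of 0.999 each.

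In eye 0 of 83 passed in each comparison, against 0.00502% of all genes in H21 and 0 in the others. In the H60 group 78 of 83 members had negative changes, against 44.09% of all genes. It had 33 members with an unadjusted p under 0.05, where 5.4% of all genes had one. H21, H40, H100 and N100 had 1, 3, 4 and 2 such members, against 2.25%, 2.11%, 5.31% and 3.9% of all genes. In the H60 eyes these were 14 of 36 members of complex I, 1 of 4 of complex II, 3 of 9 of complex III, 6 of 16 of complex IV, 8 of 17 of complex V, and Cycs. Members moved together from array to array, so these counts do not stand for separate genes.

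The smallest p in H60 eyes belonged to Ndufa7 (-0.35 ± 0.10), Cox5a (-0.46 ± 0.16) and Atp5o, a stalk subunit (-0.35 ± 0.13), each with an adjusted p of 0.90. Cox5a ran from 8.83 through 9.05 to 9.42 in H60 eyes, against 9.12, 9.37 and 10.44 in N21 eyes. These ranges overlap between 9.12 and 9.42. The median change over members was -0.24 within the first records and -0.20 within the later ones. The comparison of H40 with N21 in eye had Ndufs1 (-0.23 ± 0.079) and Uqcrc2 (-0.14 ± 0.064), and that of N100 with N21 had Atp5j (-0.26 ± 0.10) and Ndufa6 (-0.45 ± 0.19), with adjusted p of 0.94 to 1.0. In H100 eyes Ndufc1 (-0.24 ± 0.072) and Cycs (-0.32 ± 0.15) differed from N21 with an adjusted p of 0.93 each.

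H100 and N100 had the same oxygen after different first phases. Their comparison called 0 of 83 members in lung, against 0.105% of all genes, and 0 of 83 in the other organs, against 0.01% for brain and 0 for eye (limma). The median change over members was 0.054 in lung, 0.032 in brain and 0.021 in eye. In lung it was -0.024 with record order as a term and -0.22 in later records alone, in brain -0.21 in later records, and in eye -0.013 with array weights and -0.015 in first records. Later records hold 1 N100 brain array. At an unadjusted p under 0.05 there were 0, 0 and 1 members, where 5.96%, 4.55% and 8.7% of all genes passed. That member was Ndufc1 in eye, which ran from 9.91 through 10.28 to 10.51 in H100, against 10.33, 10.48 and 10.68 in N100 (-0.19 ± 0.072, adjusted p = 0.47). The ranges overlap between 10.33 and 10.51.

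A linear trend across the 4 hypoxia groups by the oxygen they received, given as the change over 21 to 100%, called 0 of 83 members and 0 of all genes in each organ. Its median over members was -0.0044 in lung, -0.13 in brain and -0.019 in eye, where the medians over all genes were 0.0033, -0.0100 and 0.0071. In brain 74 of 83 slopes were negative, 16 of 16 in complex IV, against 53.81% of all genes. Members moved together from array to array, so these counts do not stand for separate genes. There 6 members had an unadjusted p under 0.05, against 6.45% of all genes. Cox6b2 (-0.22 ± 0.084), Cox5a (-0.39 ± 0.17) and Cox7b (-0.27 ± 0.13) came nearest, each with an adjusted p of 0.75. The brain median was -0.089 without H21 array 1, -0.083 within the first records and -0.23 within the later ones, and -0.030 with arrays weighted by quality. Lung had 0 and eye 2 members with an unadjusted p under 0.05, where 1.74% and 5.71% of all genes had one.

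Neighbouring pathways were set beside the subunits, again with hypoxia arrays pooled against normoxia arrays. Of 42 assembly factors 0 passed in any organ, with medians of 0.0069 in lung, -0.014 in brain and -0.010 in eye. Of 15 regulators of mitochondrial biogenesis, 0 passed in any organ. Of 13 genes of the tricarboxylic acid cycle, Suclg2, a subunit of succinyl-CoA synthetase, fell in lung (-0.22 ± 0.047, limma adjusted p = 0.0032) and the others did not pass. COX2 and ND3, the 2 mitochondrially encoded subunits matched by identifier, differed by between -0.054 and -0.0049 over the organs.

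Single genes of glycolysis and of the hypoxia response were called, where the shares over all genes were 1.63% in lung and 0.0903% in eye. Pfkp, a phosphofructokinase, rose in eye by 0.52 ± 0.072 (limma adjusted p = 2.23e-05), with 37 of 38 hypoxia arrays above the normoxia mean. Pfkl rose in lung by 0.30, and Bnip3, which marks mitochondria for removal, rose in lung by 0.35 ± 0.088 (adjusted p = 0.018). Pdk1, which holds pyruvate back from the cycle, differed by 0.18 ± 0.042 in brain (adjusted p = 0.068), with 38 of 40 hypoxia arrays above the normoxia mean. Glycolysis had 13 genes measured, of which 1 rose in lung and 1 in eye, with medians of 0.13 in lung, 0.071 in brain and 0.069 in eye. The list of 10 mitochondrial genes tied to the hypoxia response, which holds Cox4i2 and Ndufa4l2 themselves, had 1 call in lung and 0 in the other organs. Neutrophil markers had positive changes for 8 of 8 genes in lung, where 44.82% of all genes had negative ones. Their median was 0.44, and Mmp8 rose (0.91 ± 0.15, limma adjusted p = 0.00013). Of 8 neuronal markers Stmn2 rose in lung (0.31 ± 0.069, limma adjusted p = 0.0064). The mean of the 8 was 5.72 ± 0.11 in hypoxia and 5.67 ± 0.096 in normoxia lungs (SD, n = 41 and 19), so the list as a whole differed little. The part of neutrophils or neurons in the lung values was not tested.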

How the data were processed

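Per the submitters' processing notes, the authors made the deposited log2 values with RMA, whose version is not given in the sources used here. The labels' protocols name 10 ng of total RNA per array, a kit for RNA from blood after a Ficoll gradient, although the design text names stored tissue. Sorted values of all arrays of an organ nearly coincide (largest gap 0.0961). Medians over all probe sets differ between organs, at 6.25 in lung, 6.07 in brain and 6.35 in eye. Organs were therefore taken as normalized separately.

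Groups and numbers came from sample titles. Of 34760 probe sets, 21640 have 1 gene symbol in the platform annotation, 1321 several and 11799 none. Of the 21640, 21553 had an Entrez identifier found in RefSeq and took the RefSeq symbol, whether or not it differed. Changes were fitted with limma 3.58.1 in R 4.3.3 (lmFit and eBayes, two-sided), with all 6 groups of an organ in 1 fit and Benjamini-Hochberg adjustment over 19937 genes. All hypoxia minus all normoxia weights groups by their arrays. Errors given as ± on a change are standard errors, and other ± values are SD. The fit was tested on simulated data. Correlations used permutation tests (two-sided, scipy 1.17.1) with 100000 resamples. Gaps in marker means of 0.4 or more split the lung arrays, a rule set after seeing the data. The number of arrays limits precision. Where nothing says that samples come from separate animals, p-values measure the spread between these samples. Members and lists were chosen with earlier results of these data known. Genes were named by rule: those called, else the 3 with the smallest adjusted p per comparison, the extremes per complex, and always the paired isoforms, the Sdh genes, Cyc1 and Cycs. Genes named for intervals beyond the 1.25-fold limits, record order or Pdk1 were chosen after their values were seen. The 13 listed mitochondrially encoded genes matched no symbol, and COX2 and ND3 were added afterwards by identifier. Alternatives were array weights, a filter on dim genes, repeated quantile normalization, a replicate block, record order, sex, every probe set, only the groups compared, first or later records alone, the 3 arrays left out, and each array left out in turn.

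The replicate numbers do not pair arrays within an organ by the labels. Deviations of same-numbered arrays of different groups had a mean correlation of 0.16 in lung, 0.11 in brain and 0.078 in eye. Arrays with other numbers had -0.014, -0.0072 and -0.0063.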

Additional observations from a re-analysis of the deposited data

Results flagged for a closer look

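Groups of 4 to 10 arrays were searched for an array far from the others, in 25 measures: the member median, complexes I to V and the 19 genes always described. Of 325 group values 17 had one, and chance gives about 1 in 20. The median of the members was 8.94 in H21 eye array 5, where the next lowest array had 9.49, and complex II averaged 9.15 on the same array.

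Cycs was high on 3 arrays: 11.56 in H40 eye array 8 (next 10.37), 11.57 in H21 brain array 8 (next 10.96) and 11.81 in N21 brain array 7 (next 11.01). H40 eye array 8 was also high for Ndufa4 (12.32) and low for Sdha (10.55). N21 brain array 7 was low for Sdhd (9.15), and N21 eye array 7 was low for Sdha (10.56). These 4 arrays (H40 eye 8, H21 brain 8, N21 brain 7 and N21 eye 7) come from later sample records.

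Cox6a1 was low in H40 eye array 5 (8.64) and in N100 lung array 6 (8.37). Cyc1 was high in H60 eye array 8 (10.60), and Cox7a1 was low in H60 eye array 1 (7.43). Cox6a2 was high in H21 lung array 1 (9.19, next 8.15). Cox8c, at the dim end of the scale, was low in H21 brain array 7 (4.71) and N21 brain array 6 (4.69) and high in H21 eye array 4 (6.29).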

How the results depend on the processing

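The count of members called stayed at 0 in all 24 comparisons and 3 differences between organs under every alternative run, with each array left out in turn as well (lowest 0, highest 0). With replicate number as a block the count was 0 too, and all genes called for all hypoxia against all normoxia numbered 387 for lung, 15 for brain and 17 for eye, against 324, 17 and 18 without it, so the block changed no call of a member. Same-numbered arrays correlated above 0.1 in 55.4% of pairs in lung, 54.5% in brain and 39.7% in eye, so the numbers were not treated as pairs. Counts over all genes moved more: with array weights 842, 42 and 59, with the 3 arrays of another organ kept 89, 13 and 8, in first records alone 60, 6 and 0, in later records alone 54, 0 and 1, and with record order as a term 485, 21 and 30 (lung, brain, eye). Cox4i2 in eye had an adjusted p from 0.058 (array weights) to 0.53 (first records alone) over the other settings run on all or first records, and from 0.094 (without H40 array 2) to 0.37 (without N21 array 3) with 1 array left out. Cox6a2 turned sign in H40 brains with the arrays of another organ kept (0.085). In later records alone, added after seeing the data and resting on 1 N100 array in brain and in eye and 2 in lung, the member median moved to 0.25 for N100 minus N21 in lung and to -0.21 for H100 minus N100 in brain. Signs turned there for Ndufb3 (-0.0085) in all hypoxia, Atp5a1 (-0.0038) in H40, Atp5g2 (0.12), Atp5l (0.27) and Ndufa8 (0.087) in N100 and the Cox8c slope (0.12) in lung. In brain they turned for Cox6b1 (-0.025) and Atp5g3 (-0.018) in all hypoxia, Cox7b2 (0.012) in H21, Atp5g2 (0.16) in N100, and Ndufv1 (-0.13) and Atp5mpl (-0.085) in H100 minus N100. The cause was not tested, and none of these members was called. Other probe sets of the 18 members that have several gave the opposite sign of change in all hypoxia in lung for 11 members, brain 7 and eye 6. Without N21 array 7 the member median was -0.081 for H100 minus N21 in brain and -0.030 for all hypoxia in eye. With arrays of the same group and number taken as 1 animal, as a random block in first records (consensus correlation 0.18), 0 members differed between organs.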
